A study of Mus musculus with 5 samples.

Results

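The regions described here are distal mJunB-bound sites that carry H3K27ac in mouse muscle stem cells (MuSCs). JunB CUT&RUN-seq peaks of 4 libraries were merged where they touched, on chromosomes 1 to 19 and X. A merged region was kept when it lay farther than 3 kb from every annotated transcription start site (TSS) and overlapped an H3K27ac peak by at least 1 bp. The regions were thus chosen by measured values, the called JunB and H3K27ac peaks themselves, so that their overlap with H3K27ac, distance from TSSs, peak height and peak width are descriptions. Of 18748 merged mJunB regions, 3802 (20.3%) met this rule. The remaining regions were 7990 distal ones without H3K27ac, 4233 within 3 kb of a TSS with H3K27ac and 2723 within 3 kb without it.

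All libraries were made from freshly isolated MuSCs of skeletal muscle. JunB was mapped in 3 libraries labelled young (young 1, young 2 and young 3) and in 1 library labelled aged, and H3K27ac was mapped in 1 library whose label gives no age. The labels give no strain, sex, genotype or age in months for these mice, and the number of animals pooled in a library is not given in the sources used here. The study's methods call the H3K27ac data its own but also name the UCSD Human Reference Epigenome Mapping Project. Whether that library came from mice like those of the JunB libraries is therefore not known. The sample labels name no treatment. The study describes its JunB CUT&RUN-seq as done in MuSCs of young and aged mice, with 3 young replicates and 1 aged, as the labels have it. The design text of the series instead describes the JunB libraries as coming from mice given DMSO or MVC. That difference was not resolved here. In a list of peaks issued with the study, the intervals of the library labelled aged stand under a heading for young mice. Intervals of young 1 and young 3 stand there under a heading for aged mice. The library labelled aged had 13971 peaks on chromosomes 1 to 19 and X. That is more than the study's peak count for young mice and less than its count for aged mice. The age of each JunB library is given here only as its sample label has it.

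JunB is a basic leucine zipper protein that pairs with FOS-family or other leucine zipper partners to form AP-1. This transcription factor binds the nearly palindromic heptamer TGAGTCA and is induced quickly by growth factors, stress and injury. H3K27ac, acetylation of lysine 27 of histone H3, marks active promoters and, away from TSSs, active enhancers, so a distal AP-1 site with this mark is a candidate enhancer. MuSCs are the resident stem cells of skeletal muscle, and the study asked where JunB binds in them, with attention to genes of the senescence-associated secretory phenotype (SASP), the secreted factors of senescent cells.

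Sequences centred on an AP-1 motif are shown for 8 distal H3K27ac-marked regions, because this motif had the largest excess over the flanks, in number of regions, of all 7-letter words around the mJunB summits. Each region had a peak in all 4 JunB libraries and lies nearest to a gene of the SASP, MuSC, TGF-beta, Hippo, actin or stress response lists, and each was chosen after its values were seen. Capitals mark the motif, which reads TGAGTCA on one strand and TGACTCA on the other. The plus strand of GRCm38 (mm10) is given.
Gadd45a: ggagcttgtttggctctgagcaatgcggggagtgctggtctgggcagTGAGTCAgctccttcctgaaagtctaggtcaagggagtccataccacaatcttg
Ltbp1: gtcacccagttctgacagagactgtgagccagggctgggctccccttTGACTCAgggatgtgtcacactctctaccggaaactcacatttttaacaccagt
Rnd3: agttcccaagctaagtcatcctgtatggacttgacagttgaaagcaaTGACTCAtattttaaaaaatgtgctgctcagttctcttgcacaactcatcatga
Met: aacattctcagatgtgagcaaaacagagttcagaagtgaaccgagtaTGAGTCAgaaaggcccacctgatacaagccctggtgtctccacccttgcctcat
Ncam1: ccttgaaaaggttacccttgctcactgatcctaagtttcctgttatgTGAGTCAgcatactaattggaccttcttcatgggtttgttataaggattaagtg
Il12a: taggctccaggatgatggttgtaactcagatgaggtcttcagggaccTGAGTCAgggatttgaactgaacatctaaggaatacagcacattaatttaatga
Tead3: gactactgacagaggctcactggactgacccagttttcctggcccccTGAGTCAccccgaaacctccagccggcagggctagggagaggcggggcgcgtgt
Trib1: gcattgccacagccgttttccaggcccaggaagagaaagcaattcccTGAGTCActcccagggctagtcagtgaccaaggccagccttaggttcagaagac
The windows lie at chr6:67102649-67102749 for Gadd45a, chr17:75110616-75110716 for Ltbp1, chr2:50793680-50793780 for Rnd3, chr6:17478900-17479000 for Met, chr9:49816738-49816838 for Ncam1, chr3:68662978-68663078 for Il12a, chr17:28341057-28341157 for Tead3 and chr15:59567355-59567455 for Trib1. The motif centre stood at -189 bp from the mJunB summit at Gadd45a, -198 bp at Ltbp1, 103 bp at Rnd3, -264 bp at Met, 203 bp at Ncam1, 172 bp at Il12a, 168 bp at Tead3 and -74 bp at Trib1, so in these 8 regions it lay to one side of the summit.

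The next 2 windows hold the motif nearest to the summit in the only distal H3K27ac-marked regions assigned to Cxcl1, a chemokine that attracts neutrophils, and Tgfb3, a TGF-beta ligand, both of which the study names as SASP genes.
Cxcl1: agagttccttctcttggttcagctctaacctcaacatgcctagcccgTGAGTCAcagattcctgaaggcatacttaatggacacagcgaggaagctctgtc
Tgfb3: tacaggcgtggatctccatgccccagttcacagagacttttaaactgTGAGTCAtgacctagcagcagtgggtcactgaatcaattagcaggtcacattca
The windows lie at chr5:90876161-90876261 for Cxcl1 and chr12:86047962-86048062 for Tgfb3. At Cxcl1 the motif was at -250 bp from the summit, outside the called peak, and at Tgfb3 it was at 5 bp.

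Regions with the motif within 50 bp of the summit were fewer. The 5 strongest of them with a peak in all 4 libraries and the 3 nearest to listed genes are shown in windows that reach 50 bp to either side of the summit.
Kdelr2: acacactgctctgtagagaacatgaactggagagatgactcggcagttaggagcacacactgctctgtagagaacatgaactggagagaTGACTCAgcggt
Map3k19: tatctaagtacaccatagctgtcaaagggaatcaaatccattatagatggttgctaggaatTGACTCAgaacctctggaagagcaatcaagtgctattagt
Scmh1: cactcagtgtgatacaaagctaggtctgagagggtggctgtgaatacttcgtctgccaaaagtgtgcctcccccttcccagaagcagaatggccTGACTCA
Tacc2: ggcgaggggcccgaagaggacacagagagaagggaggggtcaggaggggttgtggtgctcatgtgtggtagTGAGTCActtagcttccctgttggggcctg
Coro2b: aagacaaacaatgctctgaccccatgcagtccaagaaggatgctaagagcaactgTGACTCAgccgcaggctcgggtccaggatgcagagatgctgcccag
Foxo3: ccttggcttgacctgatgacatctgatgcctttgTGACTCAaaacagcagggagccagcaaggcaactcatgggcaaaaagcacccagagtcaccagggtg
Timp2: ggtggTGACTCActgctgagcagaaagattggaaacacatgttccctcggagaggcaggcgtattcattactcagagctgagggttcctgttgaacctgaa
Zfp36l1: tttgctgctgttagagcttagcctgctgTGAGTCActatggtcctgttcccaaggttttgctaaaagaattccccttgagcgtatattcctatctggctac
The windows lie at chr5:143414567-143414667 for Kdelr2, chr1:127860399-127860499 for Map3k19, chr4:120380991-120381091 for Scmh1, chr7:130671343-130671443 for Tacc2 and chr9:62560082-62560182 for Coro2b, and at chr10:42231256-42231356 for Foxo3, chr11:118365324-118365424 for Timp2 and chr12:80046935-80047035 for Zfp36l1. The Kdelr2 window belongs to sequence with a median of 8.5 copies in the genome, whereas the other 7 windows are single-copy.

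The 4 JunB peak lists were not called to the same depth, and this bears on each count by library. The lowest -log10 p in a list was 3.01 in young 1 and 3.01 in the library labelled aged, but 5.33 in young 2 and 5.22 in young 3, and the lists held between 3796 and 13971 peaks. The files hold no read counts, so the sequencing depth behind a peak is unknown. The H3K27ac list had a peak within 3 kb of a TSS for 28 of 37 genes of the MuSC list, although not for Pax7, Myf5, Calcr or Cxcr4, and for 50.2% of all protein-coding genes. For other muscle-resident cells, promoter H3K27ac peaks were listed at 4 of 12 genes of fibro-adipogenic progenitors (FAPs), 3 of 12 endothelial, 3 of 12 immune, 6 of 10 smooth muscle and 4 of 10 tenocyte and Schwann cell genes.

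Repeated sequence was rare in the distal H3K27ac-marked regions but led their ranking by peak strength. The window of 50 bp to either side of the summit had more than 1 copy in the genome in 233 of the 3802 regions (6.13%), against 40.4% of distal mJunB regions without H3K27ac. Of the 10 regions that ranked highest in all 4 libraries, 9 were of this kind, and they lay nearest to Tmem196, Lars2, Wls, Tmem267, Mrgprd, Fgf14, Tcte2, Gm45871 and A630089N07Rik. The remaining one, nearest to Gm10604, was single-copy. Fold enrichment is the MACS2 ratio of the peak over the local background of its own library, and at Tmem196, with 1782 copies, it was 33.7, 35.4 and 31.7 in the young libraries and 28.8 in the library labelled aged. Reads from repeated copies cannot be placed uniquely, so results below are given for all regions and for the 3569 single-copy regions where they differ.

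AP-1 motifs were concentrated around the mJunB summits of the distal H3K27ac-marked regions, but mostly to the sides of the summit rather than on it. A motif lay within 300 bp of the summit in 1835 of 3802 regions (48.3%, 95% exact interval 46.7 to 49.9), against 11.6% of windows of the same length centred 1000 bp away and 34.4% of all merged mJunB regions. Among the 3569 single-copy regions it was found in 1795 (50.3%), against 51.7% of single-copy distal mJunB regions without H3K27ac. The motif was present in 11.2% of the same windows around the summits of 19722 distal H3K27ac peaks without mJunB. The window of 300 bp was chosen after the profile of the motif had been seen, and intervals on shares of regions cover counting error only.

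The share with a motif was raised over the flanks in every JunB library. Of the peaks in these regions, 55.2% in young 1, 59.8% in young 2, 61.7% in young 3 and 47.5% in the library labelled aged held the motif within 300 bp of the summit. The 3 young libraries gave 58.9% ± 3.33 (SD, n = 3) at the summit and 11.5% ± 0.277 (SD, n = 3) in the flanks. The flank share in the library labelled aged was 11.8%. Averaged over the 4 libraries, the summit share was 56.1%, the flank share was 11.6% and the difference was 44.4 percentage points, with every library higher at the summit (exact two-sided sign-flip permutation test over 4 libraries, p = 0.13, adjusted p = 0.188 over 12 tests). This p is the smallest that 4 libraries allow.

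The position of the motif relative to the summit was similar in each library. Between 150 and 250 bp to either side of the summit, AP-1 motifs occurred 8.44, 10.1 and 10.01 times per 100 peaks and 50 bp in young 1, young 2 and young 3 and 7.52 times in the library labelled aged. Within 50 bp of the summit the density was 3.17, 3.38 and 4.26 in the young libraries and 2.49 in the library labelled aged. From 350 to 1000 bp it was 0.965, 0.999, 1.07 and 1.07 in the same order. The density was thus highest away from the summit in all 4 libraries, and the innermost 50 bp still exceeded the outer level by 2.33 to 3.99 times. The nearest motif lay at a median of 146, 147 and 139 bp from the summit in the young libraries and 157 bp in the library labelled aged, and 51.2% of nearest motifs over all single-copy peaks lay to the left of the summit.

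**Figure D1:**
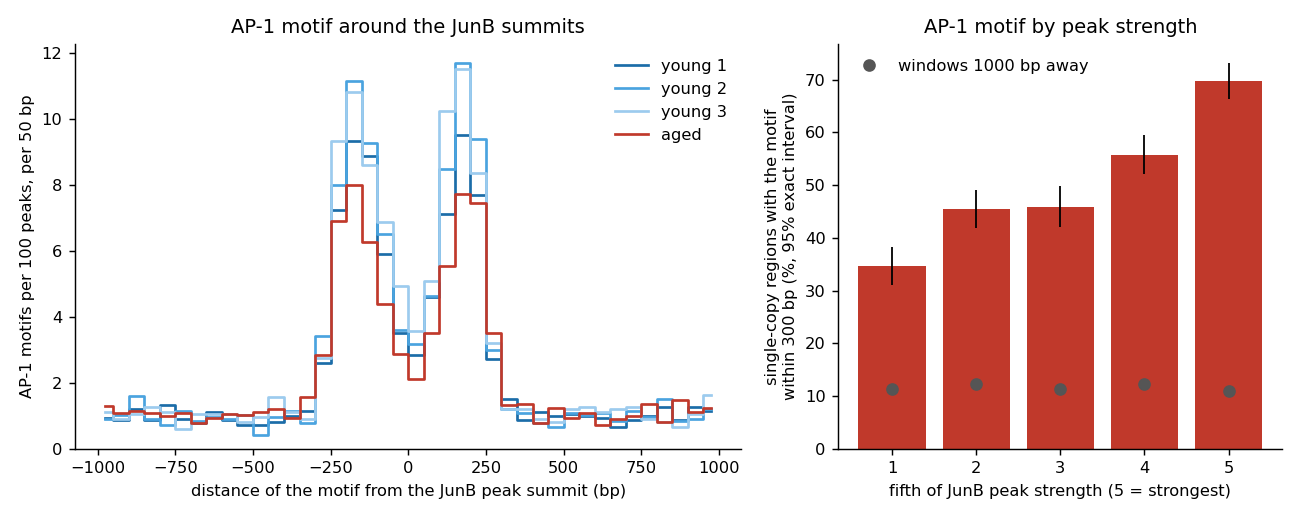
Left, AP-1 motifs per 100 mJunB peaks and 50 bp (y axis) against the distance of the motif from the peak summit in bp (x axis), with 1 line for each JunB library, for peaks in distal H3K27ac-marked regions. Right, share of single-copy regions with the motif within 300 bp of the summit by quintile of mJunB peak strength (bars, with 95% exact intervals) and the share in windows 1000 bp away (dots). The lines peak between 150 and 250 bp on each side and dip at the summit, and the share with a motif was 34.6% in the weakest and 69.7% in the strongest quintile.

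Narrow peaks often ended short of the motif. Among peaks of 300 bp or less in single-copy regions, 50.3% had a motif within 300 bp of the summit, and 40.8% of those motifs lay inside the called peak. Among wider peaks the motif was present in 60.1% and inside the peak in 82.1% of these cases. A search of the called intervals alone found the motif in 1491 of the 3802 regions (39.2%), against 21.5% of distal mJunB regions without H3K27ac, whose median width was 299.5 bp against 446.5 bp.

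Stronger mJunB peaks held the motif more often within 300 bp of the summit, but not within 50 bp. Peak strength was taken as the percentile of -log10 p within its library, at the library where the region ranked highest. From the weakest to the strongest quintile of the single-copy regions, the motif was present in 34.6%, 45.5%, 45.9%, 55.7% and 69.7%, while the flanks stayed between 10.99% and 12.3%. Within 50 bp the shares were 6.16%, 4.77%, 4.61%, 6.44% and 3.50% in the same order, the lowest in the strongest quintile, where the flanks were at 2.66%. Of the 15 single-copy regions that ranked highest in all 4 libraries, 14 held the motif within 300 bp. The exception was the region nearest to Myl12b, which encodes a myosin regulatory light chain.

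The distal H3K27ac-marked regions held the motif more often than promoter-proximal mJunB regions with H3K27ac. The comparison with distal regions without H3K27ac differed in sign between libraries and changed in single-copy sequence. Peaks near promoters held the motif within 300 bp in 38.6%, 40.6% and 42.7% of cases in the young libraries and 23.3% in the library labelled aged. The mean difference was 19.8 percentage points, and the distal share was higher in 4 of 4 libraries (exact sign-flip permutation test, p = 0.13, adjusted p = 0.188). Distal peaks without H3K27ac held the motif in 36.1%, 66.2% and 68.2% of cases in the young libraries and 34.6% in the library labelled aged. Against these peaks the mean difference was 4.79 points, with 2 of 4 libraries higher, young 1 and the one labelled aged (exact sign-flip permutation test, p = 0.5). It was 0.43 points without young 1, 8.43 without young 2, 8.53 without young 3 and 1.89 without the library labelled aged. In single-copy sequence this difference turned to -4.99 points, with 3 of 4 libraries lower (exact sign-flip permutation test, p = 0.25).

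In the narrower window of 50 bp to either side of the summit, the motif was present in 186 of the 3802 regions (4.89%), beside 3.88% of all merged mJunB regions, 1.67% of the flanks and 1.72% of distal H3K27ac peaks without mJunB. By library the share was 5.86%, 5.91% and 7.69% in the young libraries and 4.77% in the library labelled aged. The mean excess over the flanks was 4.33 points, in the same direction in 4 of 4 libraries (exact sign-flip permutation test, p = 0.13, adjusted p = 0.188). The difference from distal regions without H3K27ac averaged -0.52 points, with 2 libraries higher and 2 lower (exact sign-flip permutation test, p = 0.625). In single-copy sequence it was -1.44 points and lower in 4 of 4 libraries (exact sign-flip permutation test, p = 0.13).

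When all 8192 seven-letter words were counted within 300 bp of the summits of the single-copy regions, TGACTCA had the largest excess. It was present in 1795 regions against 417 expected from the flanks. Each of the 5 words that followed shares 6 consecutive letters with it. The E-box CAGCTG, bound by MYOD and related myogenic factors, was found within 300 bp in 47.8% of the single-copy regions and in 27.2% of their flanks. It was found in 46.2% of distal H3K27ac peaks without mJunB and in 33.1% of single-copy distal mJunB regions without H3K27ac. Of the single-copy regions, 884 held both AP-1 and this E-box, and 952 (26.7%) held neither.

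Other motifs differed from their flanks by fewer percentage points than AP-1. GGAATG, the TEAD motif, was found in 37.0% of the single-copy regions and 29.4% of the flanks, and TGTGGTT, bound by RUNX factors, in 15.4% and 13.9%. TGACGTCA, the cAMP response element that JunB can also bind in dimers with ATF and CREB proteins, was present in 68 regions (1.91%), against 0.406% of the flanks, a ratio of 4.69 beside 4.30 for AP-1. ACTATGC, a shuffled form of the AP-1 heptamer searched as a control, was found in 4.15% of the regions and 4.90% of the flanks. GGGCGG, bound by SP and KLF factors, was found within 50 bp in 2.92% of all 3802 regions and 16.8% of promoter-proximal mJunB regions with H3K27ac. All motifs were searched on both strands, and none of these contains the AP-1 heptamer.

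GC content separated the distal regions from promoters. Within 50 bp of the summit it averaged 47.7%, 47.6% and 47.5% in the young libraries and 48.2% in the library labelled aged. The difference from promoter-proximal peaks with H3K27ac averaged -6.72 points (lower in 4 of 4 libraries, exact sign-flip permutation test, p = 0.13, adjusted p = 0.188). The difference from distal peaks without H3K27ac averaged 1.31 points (higher in 4 of 4 libraries, exact sign-flip permutation test, p = 0.13, adjusted p = 0.188).

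mJunB occupancy was shared between libraries more often in these regions than among all mJunB regions. Of the 3802 regions, 2524 had a peak in young 1, 1630 in young 2, 1325 in young 3 and 2832 in the library labelled aged, and the young libraries averaged 1826 ± 623 (SD, n = 3). A peak in all 4 libraries was found at 935 regions (24.6%, 95% exact interval 23.2 to 25.99), beside 13.1% of all merged mJunB regions. In single-copy sequence these shares were 24.7% and 15.9%. The share with a peak in all 4 libraries was 6.45% in distal regions without H3K27ac, or 10.3% in single-copy sequence, and 18.6% at promoters with H3K27ac. In 517 regions 3 libraries had a peak, in 670 regions 2 and in 1680 regions 1. The regions kept here made up 27.2%, 34.2% and 35.2% of the regions of the young libraries and 20.3% of those of the library labelled aged.

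**Figure D2:**
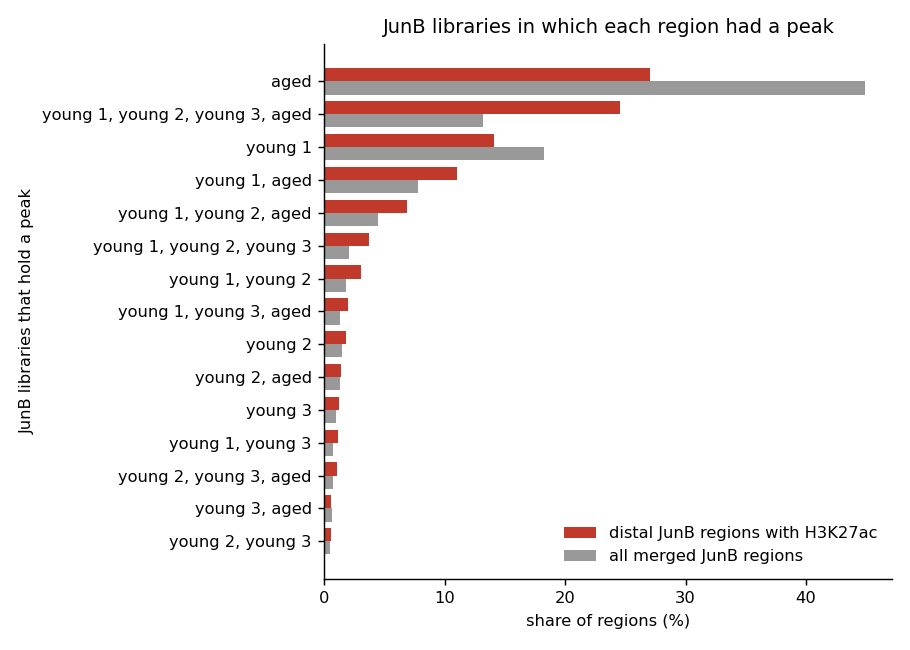
Share of regions in percent (x axis) for each combination of JunB libraries that held a peak (y axis), for the 3802 distal mJunB regions with H3K27ac and for all 18748 merged mJunB regions. A peak in the library labelled aged alone is the most frequent combination in both (27.1% and 44.9%), and a peak in all 4 libraries is the next among the distal H3K27ac-marked regions, at 24.6%.

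Strong peaks were nearly always found again in another library. Of the 2000 strongest peaks of each library, 802, 757 and 763 in the young libraries and 622 in the library labelled aged lay in these regions, and of them 15, 0, 4 and 24 had no peak in any other library. Fold enrichments of regions shared by a pair of libraries had a Spearman correlation across regions of 0.72 to 0.77 among the young libraries and 0.57 to 0.66 between a young library and the one labelled aged. These are descriptions across between 1074 and 1689 shared regions. In the 880 single-copy regions with a peak in all 4 libraries, the summits spanned a median of 84.5 bp (interquartile range 53 to 160).

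The motif share rose with the number of libraries that held a peak. AP-1 lay within 300 bp of the summit in 64.6% of the 935 regions found in all 4 libraries, 54.7% of those found in 3, 47.3% of those found in 2 and 37.6% of those found in 1. The flanks were between 11.1% and 11.99%. Single-copy regions with the motif had a peak in all 4 libraries in 33.0% of cases, and those without it in 16.2%. Their median H3K27ac fold enrichment was 3.65 and 3.78.

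Regions seen only with one age label were also described, with no test, since 1 library against 3 cannot give a two-sided p below 0.5. In 1029 regions (27.1%) the library labelled aged alone had a peak, beside 44.9% of all merged mJunB regions, and in 970 (25.5%) at least 1 young library and not the one labelled aged had a peak, beside 25.7% of all. With the 2000 strongest peaks of each library these shares became 7.81% and 46.7%, and without young 1 they were 44.6% and 13.4%, so their order changed with the peaks that entered. In 140 regions (3.68%) all 3 young libraries and not the one labelled aged had a peak, beside 2.07% of all merged mJunB regions. In single-copy sequence, regions with a peak in young libraries only were 25.6%, beside 20.2% of all single-copy mJunB regions. Those with a peak in the library labelled aged alone were 27.4%, beside 45.5%.

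AP-1 was less frequent in the regions found only in the library labelled aged. Within 300 bp of the summit it was present in 344 of 1029 such regions (33.4%, 95% exact interval 30.6 to 36.4), in 471 of 970 young-only regions (48.6%, 45.4 to 51.8) and in 97 of the 140 regions of all 3 young libraries alone (69.3%). Quartiles of -log10 p were set within each library over all its peaks. In the lowest 3 quartiles, single-copy regions found only in the library labelled aged held the motif in 25.1%, 35.9% and 37.0% of cases, against 52.2%, 52.6% and 54.4% of those it shared with another library. For young 1 alone the same quartiles gave 41.3%, 47.3% and 51.6%, against 51.5%, 53.6% and 53.9% where shared. In the highest quartile of the library labelled aged the motif was present in 52.5% of 80 regions found only there and 63.5% of 827 shared ones.

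Fold enrichment was lower in the library labelled aged over the shared regions. In the 880 single-copy regions found in all 4 libraries the medians were 9.55, 9.66 and 9.19 in the young libraries and 7.19 in the library labelled aged. The log2 ratio of the latter to the mean of the young libraries had a median of -0.43, and over all 2340 single-copy mJunB regions found in all 4 libraries it was -0.38. The library labelled aged was the lowest of the 4 in 70.3% of the 880 regions and in 63.5% of the 2340. Values from separately called libraries are not scaled to each other.

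mJunB summits mostly fell inside the H3K27ac peak. The summit lay within it in 3282 of the 3802 regions (86.3%), and by library in 85.9%, 86.6% and 87.1% of the peaks of the young libraries and 85.7% of those of the library labelled aged. The distance to the H3K27ac summit had a median of 194.5 bp (interquartile range 72.3 to 374), with 1200 regions (31.6%) within 100 bp and 12.8% beyond 500 bp. Of the summits inside, 64.4% stood between 25% and 75% of the width of the peak. Promoter-proximal regions gave 86.9% inside and a median of 185 bp, so neither figure was particular to distal sites. In the 1795 single-copy regions with a motif, the mJunB summit lay at a median of 216 bp from the H3K27ac summit and the motif at 239 bp, and the motif was inside the H3K27ac peak in 76.2%.

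**Figure D3:**
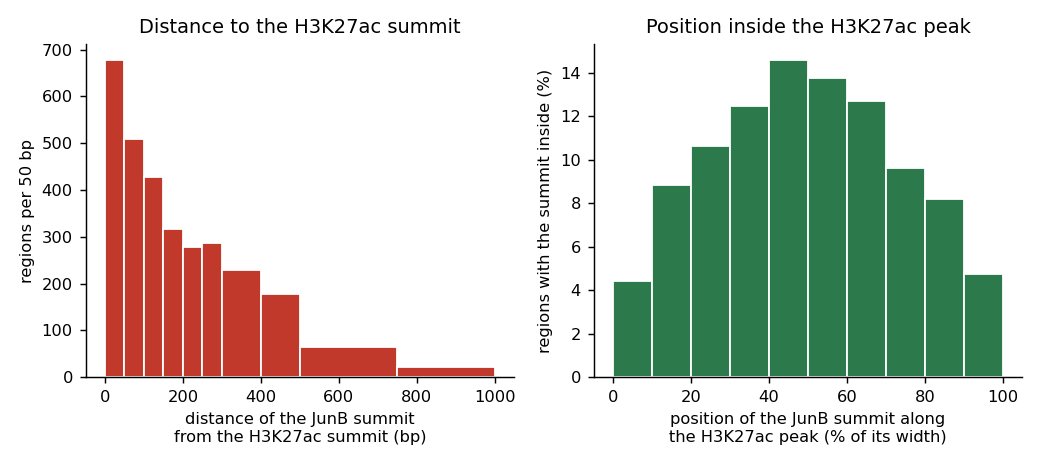
Left, number of distal mJunB regions per 50 bp (y axis) by the distance of the mJunB summit from the H3K27ac summit in bp (x axis, up to 1000 bp). Right, share of the 3282 regions with the summit inside the H3K27ac peak (y axis, percent) by its position along the peak (x axis, percent of the width). Regions are most frequent within 50 bp of the H3K27ac summit (678 of 3802) and near the middle of the peak.

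Of 39473 H3K27ac peaks, 3755 held at least 1 of these regions and 88 held 2 or more. Distal H3K27ac peaks with mJunB had a median width of 875 bp and a median fold enrichment of 3.71, against 690 bp and 3.51 for the 19722 distal peaks without it. The share with mJunB was 10.1% in the narrowest and 24.0% in the widest quintile of distal H3K27ac peaks, and 13.9% in the lowest and 21.3% in the highest quintile of fold enrichment. Wider peaks also cover more sequence in which an overlap can occur. AP-1 motifs occurred 0.582 times per kb in the H3K27ac peaks that held one of these regions and 0.184 times per kb in distal H3K27ac peaks without mJunB.

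The regions lay in introns and between genes. Introns held 1893 (49.8%), intergenic sequence 1736 (45.7%) and exons 173 (4.55%). Distal mJunB regions without H3K27ac were divided as 43.3%, 53.8% and 2.87%. The median distance to the nearest TSS was 15151 bp (interquartile range 7508 to 30289), against 18327 bp without H3K27ac, and 41 regions were on the X chromosome. Just inside the 3 kb limit were regions at 3013 bp (nearest to Gm22518) and 3014 bp (Dot1l), and just outside it regions at 2996 bp (Gm42753) and 2999 bp (Osgin1). The smallest overlaps with an H3K27ac peak were 1 bp, at a region whose nearest TSS belongs to Creb5, and 2 bp at Ly6l, while regions near Creb3l1 and Gm31371 stood next to an H3K27ac peak with an overlap of 0 bp.

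Several genes had strings of distal regions around them. Each region was assigned to the protein-coding gene with the nearest TSS, a rule that does not show which gene a site acts on. Counts per gene were not scaled by the length of sequence nearest to the gene. Among the 10 genes named here, the regions spanned from 100126 bp at Errfi1 to 685455 bp at Cdh13. The 3802 regions were nearest to 2416 protein-coding genes, 11.1% of all 21728, and those found in all 4 libraries to 794 genes, 3.65%. Cdh13, encoding T-cadherin, had 11 regions, of which 2 were found in all 4 libraries. Trib1, a pseudokinase that directs transcription factors to degradation, had 9 regions and 6 in all 4 libraries, the most among the 10 genes named here. Errfi1, a feedback inhibitor of EGFR signalling, and Sox4, a developmental transcription factor, had 9 each with 2 in all 4 libraries. Gpm6a also had 9, but the summit windows of all 9 were repeated sequence with 9 to 24 copies, and none held AP-1 within 300 bp. Arid1b, a subunit of BAF chromatin remodelling complexes, Rad51b, of homologous recombination, and Btg1, an antiproliferative gene, had 8 regions each, and Qk, an RNA-binding protein, and Arid5b had 7, with the tie at 7 regions broken by the number found in all 4 libraries and then by name. AP-1 lay within 300 bp in 5 of 11 regions at Cdh13, 6 of 9 at Errfi1, 5 of 9 at Sox4 and 4 of 9 at Trib1.

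Around Trib1 the peaks varied from weak to strong within 234603 bp. The strongest region, within Nsmce2 and 80639 bp upstream of the Trib1 TSS, had fold enrichments of 14.1, 14.6 and 13.7 in the young libraries and 9.67 in the library labelled aged. A second, 135174 bp downstream, had 14.1, 12.9, 11.4 and 9.64 in the same order. The weakest of the 6 shared regions, 110867 bp downstream, had 5.27, 6.43, 5.50 and 5.21. The values of the library labelled aged were the lowest at these 3 regions, as in 70.3% of single-copy regions found in all 4 libraries.

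Immediate-early and stress response genes were the listed group with the most distal H3K27ac-marked mJunB regions. The list was written with earlier results of these data known, so its shares are descriptions. Of 38 genes, 23 were nearest to at least 1 region and 13 to one found in all 4 libraries, beside 11.1% and 3.65% of all protein-coding genes. Their 82 regions were 2.16% of the 3802 (95% exact interval 1.72 to 2.67), against 1.26% of distal mJunB regions without H3K27ac and 0.705% of distal H3K27ac peaks without mJunB. The strongest lay 64970 bp upstream of Gadd45a, a growth arrest and DNA damage gene, at chr6:67102427-67103116, with fold enrichments of 21.2, 20.5 and 21.2 in the young libraries and 14.2 in the library labelled aged. The young values lay close together and above the library labelled aged, which was also lowest in 70.3% of single-copy regions found in all 4 libraries. Sgk1, a serum- and glucocorticoid-induced kinase, had 15.1, 16.0, 14.6 and 9.43 at its strongest region. Dusp1, a phosphatase that inactivates MAP kinases, had 12.3, 12.7, 15.1 and 7.93 at 1 of its 2 regions, and Dusp5, of the same family, 11.9, 12.6, 14.9 and 8.37. Ier3 had 10.8, 13.3, 10.8 and 10.01. AP-1 was within 300 bp in 40 of the 82 regions (48.8%), near the 48.3% over all.

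Genes of the AP-1 family themselves had 10 such regions at 6 of 19 genes (31.6%, beside 11.1% of all protein-coding genes). Of these genes, 3 had a region found in all 4 libraries (15.8%, beside 3.65%). The 10 regions were 0.263% of all (0.126 to 0.483). The share was 0.163% (0.0867 to 0.278) of distal mJunB regions without H3K27ac and 0.193% (0.136 to 0.264) of distal H3K27ac peaks without mJunB, so the intervals overlapped. Fos, the main partner of Jun proteins, had 3, all found in all 4 libraries. At the one 57840 bp downstream of the Fos TSS, the fold enrichment was 7.41, 9.31 and 8.14 in the young libraries and 9.43 in the library labelled aged, which here was not lower than the young ones. The other shared regions were near Jdp2, with 5.73, 5.65, 6.501 and 4.44, and near Jun, in sequence with 36 copies. Junb had no distal H3K27ac-marked region.

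MuSC identity and quiescence genes had regions at 19 of 37 genes, and 10 had one found in all 4 libraries. The 36 regions were 0.947% of all (0.664 to 1.31), beside 0.788% of distal mJunB regions without H3K27ac and 0.958% of distal H3K27ac peaks without mJunB. The share with mJunB was thus near that of distal H3K27ac peaks in general. Ncam1, a cell adhesion molecule, had a region 17456 bp upstream with fold enrichments of 12.1, 14.5 and 14.8 in the young libraries and 8.17 in the library labelled aged. Vcam1, a surface marker used to sort MuSCs, had 13.7, 14.5, 12.8 and 11.5 at a region 59637 bp upstream. Met, the receptor of hepatocyte growth factor, which activates MuSCs, had 18.1, 17.8, 17.1 and 8.28 at a region in its own intron. At each of these 3 sites the library labelled aged was lowest, by the smallest margin at Vcam1. It was lowest in 70.3% of single-copy regions found in all 4 libraries. Other members were Megf10 with 11.3, 10.4, 9.94 and 6.74, Tek with 10.8, 9.72, 9.38 and 6.57, and Sdc4 with 11.2, 9.89, 7.69 and 9.41. Pax7, the defining transcription factor of MuSCs, had 2 intronic regions, 1 in the 3 young libraries only (5.93, 5.15 and 6.66) and 1 in the library labelled aged only (4.23). AP-1 was within 300 bp in 21 of the 36 regions (58.3%), beside 48.3% over all 3802.

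Myogenic differentiation genes had 4 regions at 2 of 25 genes (8%), near the 11.1% of all protein-coding genes. Bin1, a membrane-shaping protein of T-tubules, had fold enrichments of 14.3, 14.96 and 14.7 in the young libraries and 7.15 in the library labelled aged at its shared region. Myod1, the myogenic regulator, had 8.03, 8.28, 6.01 and 7.32 at a region 34324 bp upstream. Both regions held AP-1 within 300 bp of the summit.

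**Figure D4:**
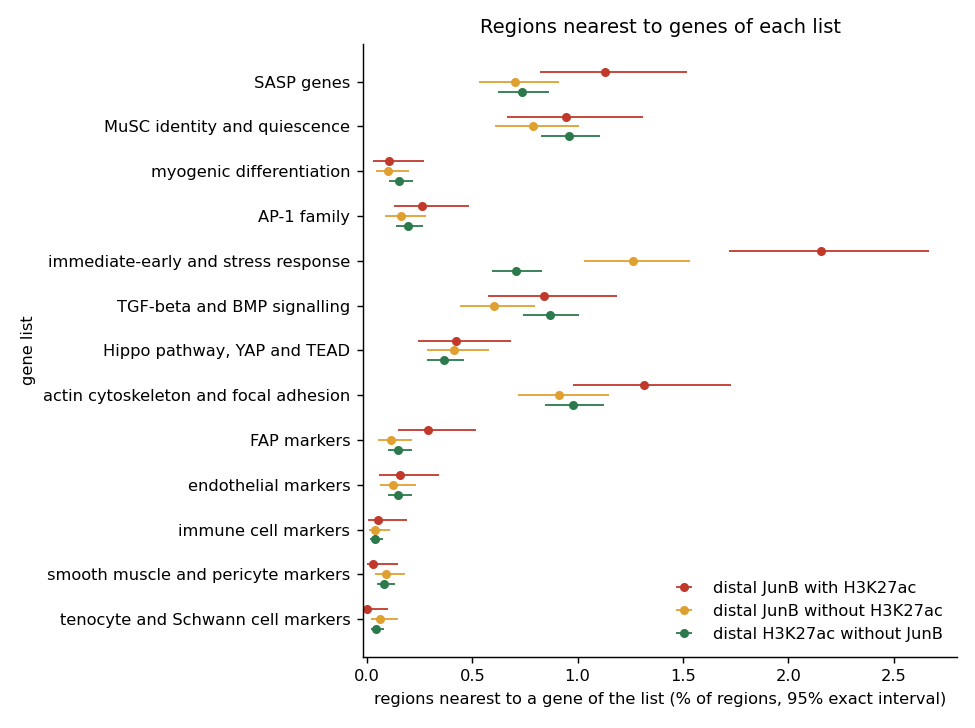
Share of regions nearest to a gene of each list (x axis, percent of regions, points with 95% exact intervals) for 13 gene lists (y axis), in distal mJunB regions with H3K27ac, distal mJunB regions without it and distal H3K27ac peaks without mJunB. The immediate-early and stress response list stands at 2.16%, 1.26% and 0.705%, and most other lists have overlapping intervals. The lists were chosen with earlier results of these data known.

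SASP genes, taken from the gene set of the study, were nearest to 43 regions at 26 of 114 genes (22.8%). A region found in all 4 libraries was nearest to 8 of the genes (7.02%). Over all protein-coding genes these shares were 11.1% and 3.65%. The 43 regions were 1.13% of all (0.820 to 1.52), against 0.701% of distal mJunB regions without H3K27ac (0.530 to 0.909) and 0.735% of distal H3K27ac peaks without mJunB (0.621 to 0.865). The list is the study's own, and whether it was drawn up independently of these libraries was not examined here. AP-1 was within 300 bp in 24 of the 43 regions (55.8%), beside 48.3% over all. Among the other lists of 10 or more regions it was within 300 bp in 56.3% of regions for TGF-beta and BMP, 54.5% for FAP markers, 46% for actin, 43.8% for Hippo and 30% for AP-1 family genes.

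Of the SASP genes, Ntf3, a neurotrophin, had the highest values in a young library, with fold enrichments of 18.8, 16.4 and 14.7 in the young libraries and 6.82 in the library labelled aged at a region 59402 bp downstream of its TSS. Il12a, a subunit of interleukin 12, had 16.2, 13.996, 14.9 and 6.62. In both, the young libraries did not overlap the library labelled aged, as in 70.3% of single-copy regions found in all 4 libraries, where that library was the lowest. Tnfrsf1b, a receptor of tumour necrosis factor, had 15.5, 11.2, 11.7 and 9.75, and Bmp6, a bone morphogenetic protein, 8.82, 11.8, 9.39 and 4.96. Ccl5 had 5.83, 7.94, 9.51 and 4.84. Ccl11 had 8.65, 7.94, 7.59 and 8.002, with the library labelled aged inside the young range. These 2 are chemokines, and Cxcr4, a chemokine receptor that is also on the MuSC list, had 7.14, 5.30, 9.55 and 5.19. Timp2, an inhibitor of metalloproteinases, had 6.17, 6.22, 8.65 and 3.84 at a region with AP-1 at -42 bp from the summit. The remaining SASP genes had regions in fewer libraries. Cxcl13, Inhba, Angpt2, Ccl27a, Cxcl1 and Ifng had 1 region each, in the library labelled aged only. Tgfb3 and Il12b had 1 each and Igf1 had 2, all in young libraries only. Egfr had 4 regions, Fgf2, Bmp4 and Cxcl12 had 2, and Mmp2, Il2, Il16, Ccl2 and Gm13306 had 1. Over the whole SASP list, 13 regions were found only in the library labelled aged and 9 only in young libraries. The 13 were 1.26% (0.674 to 2.15) of all regions found only in the library labelled aged. The 9 were 0.928% (0.425 to 1.75) of all young-only regions, so the intervals overlapped. The regions of Ccl27a and Gm13306 lie in repeated sequence, with 7 and 2 copies, and Gm13306 belongs to a family of near-identical copies of Ccl27a, so both are uncertain.

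Of the genes the study named in mice, Cxcl1 had 1 distal H3K27ac-marked region, at chr5:90876306-90876983, 14258 bp upstream, with a fold enrichment of 4.93 in the library labelled aged and no peak in the young libraries. Tgfb3 had 1, at chr12:86047972-86048220 in an intron of Ttll5, with 3.74 in young 1 alone. Timp2 had 2. Gdf15, Plaur, Il1r1, Tnfrsf1a, Pdgfb and Csf3 had none. Of these, Gdf15, Plaur, Il1r1 and Tnfrsf1a had an mJunB region within 3 kb of a TSS, as did Cxcl1 and Tgfb3. Plaur had 1 and Il1r1 had 3 distal mJunB regions without H3K27ac. Pdgfb and Csf3 had no mJunB region of either kind. The study took its mJunB target genes from promoter and enhancer binding together, so these counts cover only a part of that binding.

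TGF-beta and BMP genes had 32 regions at 17 of 37 genes (45.9%, beside 11.1% of all protein-coding genes), 6 of them with a region found in all 4 libraries (16.2%, beside 3.65%). The 32 regions were 0.842% of all (0.576 to 1.19), against 0.601% of distal mJunB regions without H3K27ac and 0.867% of distal H3K27ac peaks without mJunB. Ltbp1, which holds latent TGF-beta in the matrix, had fold enrichments of 20.8, 18.4 and 15.6 in the young libraries and 12.7 in the library labelled aged. Tgfbr3, the betaglycan co-receptor, had 15.8, 16.5, 14.2 and 13.3 at the strongest of its 3 shared regions. Tgfb2, a ligand, had 9.84, 9.38, 10.5 and 5.89, Ski, a repressor of SMAD signalling, 13.2, 7.70, 13.1 and 8.70, and Fst, an activin antagonist, 4.98, 5.47, 5.98 and 3.29. The young libraries spread most at Ski, where young 2 was below the library labelled aged.

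Hippo pathway genes had 16 regions at 10 of 28 genes (35.7%), and 3 (10.7%) had a region in all 4 libraries. Over all protein-coding genes these shares were 11.1% and 3.65%. The 16 regions were 0.421% of all (0.241 to 0.683), against 0.413% of distal mJunB regions without H3K27ac and 0.365% of distal H3K27ac peaks without mJunB. Tead3, a TEAD factor, had 12.7, 16.6 and 13.1 in the young libraries and 6.09 in the library labelled aged, Ankrd1, a target of YAP, 10.6, 8.75, 7.72 and 7.25, and Vgll2, a TEAD cofactor of muscle, 6.19, 6.86, 7.80 and 5.33. Actin cytoskeleton and focal adhesion genes had 50 regions at 22 of 40 genes (55%, beside 11.1% of all protein-coding genes). The 50 regions were 1.32% of all (0.978 to 1.73), against 0.914% and 0.979% in the same classes. Rnd3, which lowers actomyosin contractility, had 20.3, 20.6, 17.4 and 12.6 at a region 355086 bp downstream. Ahnak had 14.6, 13.2, 12.02 and 8.20, Tln2, a talin, 11.8, 9.79, 11.8 and 8.66, and Itgb5, an integrin chain, 10.8, 10.6, 12.5 and 8.42. A region of Diaph3, also found in all 4 libraries, was repeated sequence with 1787 copies.

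**Figure D5:**
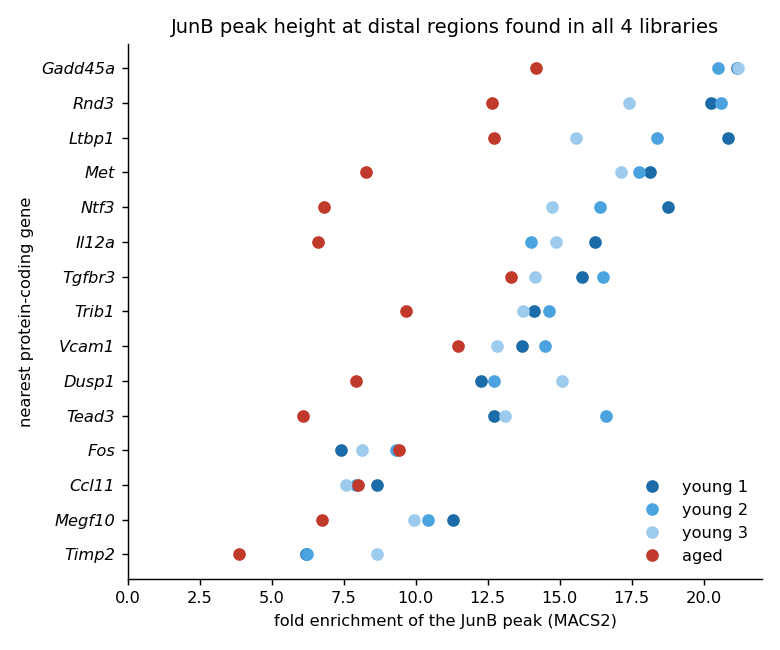
Fold enrichment of the mJunB peak over its local background (x axis, MACS2 ratio) at the strongest distal H3K27ac-marked region of 15 listed genes picked after their values were seen (y axis), with 1 point for each JunB library. The library labelled aged is the lowest point at 13 of the 15, and at Fos and Ccl11 it lies within or above the young range. It was also the lowest in 70.3% of all single-copy distal H3K27ac-marked regions found in all 4 libraries.

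Markers of other muscle-resident cells were also among the nearest genes. FAP markers had 11 regions at 5 of 12 genes (Col1a1, Col3a1, Dcn, Lum and Dpp4), or 41.7% beside 11.1% of all protein-coding genes. The 11 regions were 0.289% of all (0.145 to 0.517), against 0.113% of distal mJunB regions without H3K27ac and 0.147% of distal H3K27ac peaks without mJunB. Col1a1 had fold enrichments of 15.6, 13.8 and 10.99 in the young libraries and 13.1 in the library labelled aged, and Col3a1 15.2, 14.7, 12.1 and 6.51. Endothelial markers had 6 regions at 6 of 12 genes (50%, beside 51.4% for the MuSC list and 11.1% of all protein-coding genes), which were 0.158% of all against 0.1252% and 0.147% in the same classes. Of these 6, only the one of Flt1 was in all 4 libraries, in sequence with 7 copies. Immune markers had 2 regions at 1 of 12 genes (Ptprc), smooth muscle markers 1 at 1 of 10 (Rgs5), and tenocyte and Schwann cell markers 0 at 10 genes. Whether other cells contributed to these peaks was not tested.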

How the data were processed

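JunB was profiled by CUT&RUN-seq in 3 libraries labelled young and 1 labelled aged, and H3K27ac in 1 library, all from mouse MuSCs. The submitters' processing notes name Bowtie2, MACS2 and mm10, with versions not given in the sources used here. The authors called peaks on each library separately, and the deposited lists give each peak's fold enrichment (a ratio over the local background), -log10 p, -log10 q and summit. They hold no read counts, so depth is unknown.

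JunB peaks were merged at a gap of 0 bp in Python. TSSs came from GENCODE M21 and sequence from GRCm38. Each region was represented by the summit of its strongest peak. AP-1 (TGAGTCA) and 13 other motifs were searched on both strands. Copy number was the median count of the 32-mers of the summit window in the genome. Classes of regions were compared by a two-sided exact sign-flip permutation test over the 4 JunB libraries, with Benjamini-Hochberg adjustment over 12 tests, 4 of them on fold enrichment and width. The smallest p this allows is 0.13, so no comparison could pass 0.05. Fold enrichment and width came from the peak calls that chose the regions, so their values are described and the p of their tests is not given. The labels do not say that the young libraries came from separate animals, so the spread between them may be technical. Ages were not tested.

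Members and gene lists were chosen with earlier results of these data known. Named were, from each list, up to 6 genes with a region in all 4 libraries, the SASP genes nearest to any region, the 10 genes with most regions, the 10 regions ranking highest in all 4 libraries, the mouse genes the study names and the regions next to each threshold. A gene that this rule would name is not reported here. Genes given beyond these, the motif-centred sequences and the 300 bp window were chosen after values were seen. Python 3.11.15, numpy 2.4.6, pandas 2.3.3, scipy 1.17.1, numba 0.67.0 and matplotlib 3.10.9 were used, and the code was tested on simulated data.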

Additional observations from a re-analysis of the deposited data

How the results depend on the processing

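Of 253 values recomputed under alternatives, 224 kept their direction and, for counts, stayed within 1.5 times the reported value, or, for values with no test, within 1 SD or their interval. Differences with a test were judged by direction alone, since none could pass the threshold, and several of these changed in size. With the 2000 strongest peaks of each JunB library, 1165 regions remained, with 29.7% of them shared by the 4 libraries and 61.8% holding AP-1 within 300 bp, and 13 SASP and 12 MuSC genes were nearest to a region. With the nearest gene of any type these counts were 15 and 10. With a window of 100 bp the AP-1 share was 12.4%. The difference in AP-1 within 300 bp from distal regions without H3K27ac turned to -8.15 points with the 2000 strongest peaks and to -4.99 points in single-copy sequence. The cause was not tested.

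Leaving out each library in turn, the share found in every remaining library ran from 27.04% without young 2 to 38.6% without the library labelled aged, and the AP-1 share within 300 bp from 48.2% to 53.9%, again highest without the library labelled aged. The difference in AP-1 within 50 bp from distal regions without H3K27ac ran from -0.99 points without young 1 to 0.263 points without young 2, which reversed it. The difference in AP-1 within 300 bp from the same regions ran from 0.43 points without young 1 to 8.53 without young 3. The alternatives for single-copy sequence and for the 300 bp window were chosen after seeing the data. No paired analysis was possible because the aged group holds 1 library, whose label gives no replicate number, so the groups share fewer than 2 numbers. Peak lists of unequal length, the unknown depth, the single aged and H3K27ac libraries and reads from repeated sequence limit each count.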

Other observations

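The distal H3K27ac-marked mJunB regions with the highest H3K27ac were largely repeated sequence. Of 35 regions with an H3K27ac fold enrichment over 12, 25 had more than 1 genome copy and 16 had 1000 copies or more, and all 35 had an mJunB peak in 3 or 4 libraries. Neighbouring regions lay a median of 189624 bp apart, and 308 of 3782 gaps (8.14%) were under 10 kb.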
